A study of Mus musculus with 6 samples.

Results

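The 8 genes described here encode core parts of the PI3K, Akt and mTOR pathway: the PI3K catalytic subunits Pik3ca and Pik3cd, the kinases Akt1 and Akt2, the kinase Mtor with its partner Rictor, and the TSC proteins Tsc1 and Tsc2. They were chosen by name, and all 8 were found among the 36976 genes of the RNA-Seq table. All 8 were above the limit on low values, a mean of 0.05 FPKM (read fragments scaled to the length of the gene and the size of the library) over the 6 libraries, which 24689 genes passed.

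The libraries were made from LT-CML stem cells, bone marrow cells sorted as CD150+CD48-CD135- within the Lineage-Sca-1+cKit+ fraction of mice with chronic myelogenous leukaemia. All mice were C57BL/6 animals that carried both SCL-tTA and TRE-BCR-ABL1, so BCR-ABL1, the fusion kinase of this leukaemia, was expressed in haematopoietic stem and progenitor cells once doxycycline was withdrawn at 5 weeks of age, and cells were taken 5 weeks after that induction. The 3 Gdpd3+/+ libraries (replicates 1, 2 and 3) drew on 22 male and 12 female mice, and the 3 Gdpd3-/- libraries (replicates 5, 6 and 7) on 5 males and 5 females whose Gdpd3 gene, which encodes a lysophospholipase D, had been disrupted by Cas9 genome editing. How the mice were divided among the libraries is not given in the sources used here, so the p-values measure the spread between these libraries, and the unequal mix of sexes and the genotype cannot be told apart.

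PI3K is a lipid kinase that makes PIP3 at the plasma membrane, where PIP3 recruits Akt. Akt phosphorylates and inhibits the TSC complex of Tsc1 and Tsc2, which otherwise holds the small GTPase Rheb inactive. Rheb activates mTORC1, the mTOR complex that contains Rptor, while the mTOR complex that contains Rictor, mTORC2, phosphorylates Akt. Signalling through this pathway is controlled mainly by phosphorylation, and in haematopoietic stem cells low activity is known to go with quiescence. The study asked whether loss of Gdpd3 alters AKT and mTORC1 signalling. The libraries measure the RNA of the pathway genes and hold no measure of phosphorylation.

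No member was called changed between the genotypes. With limma on log2(FPKM + 0.1) and Benjamini-Hochberg adjustment over all 24689 genes, 0 of the 8 had an adjusted p under 0.05, where 1.71% of all genes did. At an unadjusted p under 0.05 the limma fit counted 1 of the 8, Pik3cd, where 22.2% of all genes were counted. Pik3cd, Mtor and Tsc1 were higher in every Gdpd3-/- library than in every Gdpd3+/+ library, which is 3 of 8 members beside 23.5% of all genes. No member was lower in every Gdpd3-/- library, beside 8.27% of all genes. Without Gdpd3-/- replicate 5, the shallowest library, Pik3ca, Akt2 and Rictor were also higher in each remaining Gdpd3-/- library, which made 6 of 8. That is a comparison of 2 libraries with 3, in which 31.6% of all genes were higher in the same way.

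The promoters of Pik3cd, Mtor and Tsc1 are shown because these are the only members that were higher in all 3 Gdpd3-/- libraries. They run from 250 bases before to 50 bases after a RefSeq start on GRCm38.p6 and are printed 5′ to 3′ on the strand of the gene, with the letters GGGCGG (GC box) and CCAAT on either strand in capitals. For Pik3cd the start farthest upstream of its 3 is shown, at chr4:149698659-149698958 on the minus strand. Mtor is shown at chr4:148448332-148448631 and Tsc1 at chr2:28640983-28641282, both on the plus strand.
Pik3cd: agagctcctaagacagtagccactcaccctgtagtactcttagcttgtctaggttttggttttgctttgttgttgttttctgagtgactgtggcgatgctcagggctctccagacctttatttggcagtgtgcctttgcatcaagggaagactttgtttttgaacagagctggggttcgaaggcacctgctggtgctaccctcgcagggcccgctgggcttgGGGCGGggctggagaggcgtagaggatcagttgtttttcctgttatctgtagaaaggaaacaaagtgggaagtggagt
Mtor: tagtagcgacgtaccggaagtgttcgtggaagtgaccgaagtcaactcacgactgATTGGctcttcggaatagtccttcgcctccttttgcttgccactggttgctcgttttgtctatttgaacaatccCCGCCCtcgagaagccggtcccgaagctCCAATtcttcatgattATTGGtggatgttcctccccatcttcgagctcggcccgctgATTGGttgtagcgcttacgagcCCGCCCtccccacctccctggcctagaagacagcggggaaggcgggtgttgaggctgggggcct
Tsc1: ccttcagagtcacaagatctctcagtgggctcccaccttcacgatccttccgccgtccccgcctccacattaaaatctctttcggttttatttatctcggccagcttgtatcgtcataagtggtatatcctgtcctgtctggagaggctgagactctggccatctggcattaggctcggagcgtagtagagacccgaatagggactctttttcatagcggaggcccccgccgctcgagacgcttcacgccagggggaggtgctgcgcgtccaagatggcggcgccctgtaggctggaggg
The Mtor sequence holds both motifs, this Pik3cd sequence holds a GC box alone, and the Tsc1 sequence holds neither. CG dinucleotides numbered 21 in the Mtor sequence, 20 in that of Tsc1, and 6, 26 and 4 at the 3 starts of Pik3cd, against a median of 7 over all promoters. RefSeq gave 14 starts for the 8 members. The GC box was present in 7 of these 14 promoters against 35.7% of 32851 promoters, and CCAAT in 4 of 14 against 37.4%. The TATA letters TATAAA were in 0 of 14 against 13.6%, and GTAAACA, the core letters bound by forkhead factors such as the Foxo proteins that Akt phosphorylates, were in 1 of 14, a start of Akt1, against 3.65%. These are matches of letters on both strands, and the libraries do not show which start was used.

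The targeted gene was checked first. Gdpd3 had 7.30, 3.29 and 2.95 FPKM in Gdpd3+/+ replicates 1, 2 and 3 and 0.110, 0.0129 and 0.681 FPKM in Gdpd3-/- replicates 5, 6 and 7, so the groups did not overlap and replicate 7 kept the most. The edit removed a few bases near the start codon, so the RNA level is no direct readout of it. The difference on the log2 scale was -4.00 (limma, adjusted p = 0.0588). The Gdpd3 exons share 190 of 1066 bases with Gm9967 on the opposite strand.

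The libraries of the genotypes also differed in depth, in spread and in genes of other cells. The depth read from the FPKM values was 4.98 to 6.28 Gb of covered bases in Gdpd3+/+ and 2.13 to 3.64 Gb in Gdpd3-/-, and library values correlated at Pearson r = 0.973 to 0.979 within Gdpd3+/+ and 0.808 to 0.865 within Gdpd3-/- over 15103 genes. Genes of the stem cell gate were present in every library, with Kit, which encodes cKit, at 125 to 131 FPKM in Gdpd3+/+ and 108 to 136 in Gdpd3-/-, Ly6a, which encodes Sca-1, at 342 to 409.6 and 359.967 to 563, and Slamf1, which encodes CD150, at 10.1 to 11.7 and 5.41 to 13.2, all overlapping. All 10 skeletal muscle genes were higher in every Gdpd3-/- library, with sums of 911 to 1353 FPKM in Gdpd3+/+ and 11822, 16939 and 2237 FPKM in Gdpd3-/- replicates 5, 6 and 7. All 7 neutrophil genes were lower in every Gdpd3-/- library, with sums of 28496 to 31433 against 7799 to 13415 FPKM. Of the 6 genes that the gate excludes, which summed to 92.4 to 118 against 134 to 162 FPKM, 2 were higher and 1 lower in every Gdpd3-/- library. Among the higher ones, Flt3, encodes CD135, for which the sort was negative, and had 11.0, 10.6 and 9.80 FPKM in Gdpd3+/+ and 46.5, 37.8 and 36.8 FPKM in Gdpd3-/-, a rise that limma called (adjusted p = 0.00562). Of the 7 B and plasma cell genes 1 was higher and 2 were lower in every Gdpd3-/- library (sums of 2093 to 2710 against 997 to 1820 FPKM). The 7 erythroid genes (2810 to 4610 against 1825 to 4576 FPKM) and the 6 endothelial and stromal genes (11.9 to 14.2 against 8.93 to 15.8 FPKM) all overlapped. The part of these cells in the members' values was not tested, and in bulk RNA fewer cells of a type and less RNA per cell cannot be told apart.

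Pik3cd, which encodes the p110δ catalytic subunit that is enriched in leukocytes, had the largest fitted difference of the 8. It lies on chromosome 4 of mm9 from 149023277 to 149076680 on the minus strand. Its level was 18.3, 17.8 and 14.8 FPKM in Gdpd3+/+ replicates 1, 2 and 3 (17.0 ± 1.87, SD, n = 3) and 21.1, 21.1 and 24.4 FPKM in Gdpd3-/- replicates 5, 6 and 7 (22.2 ± 1.89, SD, n = 3). The groups did not overlap, and the highest value was in Gdpd3-/- replicate 7, the Gdpd3-/- library with the lowest sum of muscle genes. On the log2 scale the difference was 0.39 (SE 0.13, 95% interval 0.08 to 0.70), a 1.31-fold higher level, with an unadjusted p of 0.0221 and an adjusted p of 0.153 in limma. The exact permutation test gave p = 0.1, the smallest that 3 libraries against 3 allow.

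Pik3ca encodes p110α, the broadly expressed catalytic subunit that acts downstream of growth factor receptors, and lies on chromosome 3 of mm9 from 32296593 to 32367408. It had 6.81, 6.53 and 6.51 FPKM in Gdpd3+/+ and 6.17, 7.41 and 7.11 FPKM in Gdpd3-/-. The Gdpd3-/- libraries spanned the whole Gdpd3+/+ range, with replicate 5 below it and replicates 6 and 7 above. The log2 fold change was 0.05 (SE 0.15, 95% interval -0.29 to 0.40, limma adjusted p = 0.833).

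**Figure D1:**
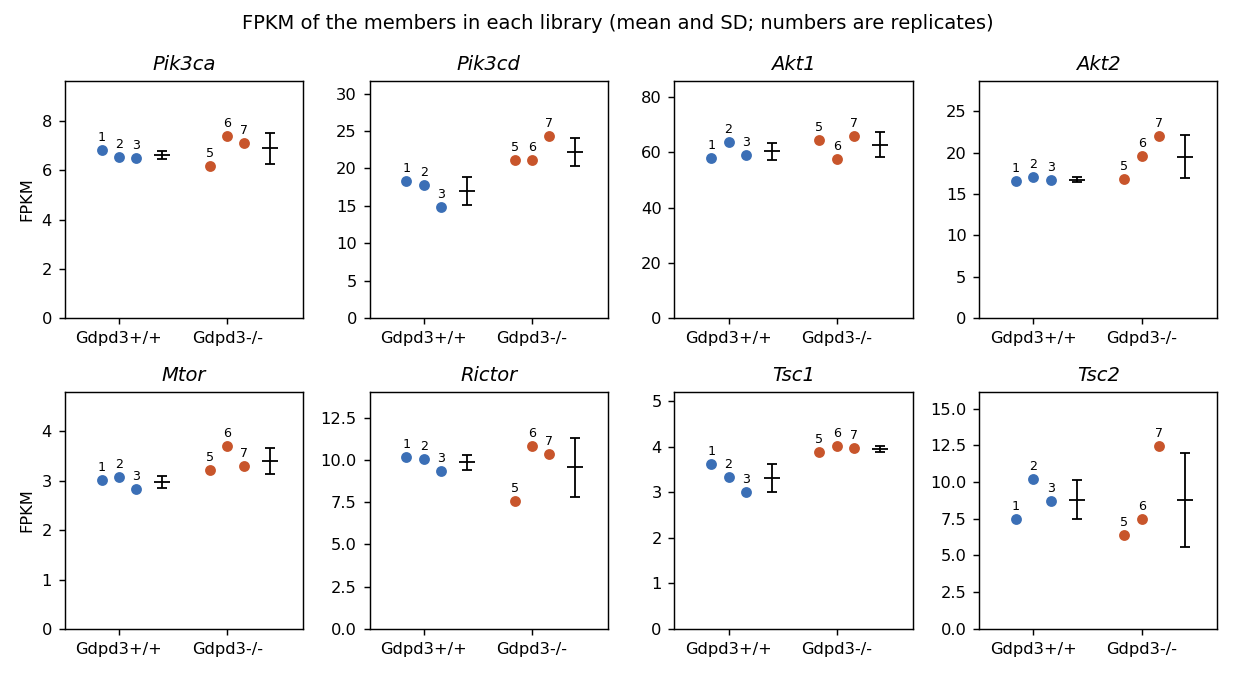
FPKM of the 8 members (y axis, linear from 0) in each library, with Gdpd3+/+ in blue and Gdpd3-/- in orange. Numbers are replicates, and the bars to the right of each group are the mean and SD of 3 libraries. The groups are separate for Pik3cd, Mtor and Tsc1, and Tsc2 and Rictor spread widely within Gdpd3-/-.

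Akt1, the most abundant of the 8, encodes the widely expressed Akt kinase and lies on chromosome 12 of mm9 from 113892032 to 113913095. It had 58.0, 63.9 and 59.1 FPKM in Gdpd3+/+ and 64.6, 57.6 and 66.0 FPKM in Gdpd3-/-. Replicate 6 of Gdpd3-/- was the lowest of the 6 libraries and replicate 7 the highest. The log2 difference was 0.06 (SE 0.10, limma adjusted p = 0.744), with a 95% interval of -0.18 to 0.29, the narrowest of the 8.

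Akt2, the Akt kinase best known for insulin-stimulated glucose uptake, lies on chromosome 7 of mm9 from 28376571 to 28425845. It had 16.5, 17.0 and 16.7 FPKM in Gdpd3+/+ and 16.9, 19.6 and 22.0 FPKM in Gdpd3-/-. Replicate 5 of Gdpd3-/- lay within the Gdpd3+/+ range and the other two lay above it. This gave a log2 fold change of 0.21 (SE 0.13, 95% interval -0.10 to 0.52, limma adjusted p = 0.378).

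Mtor, the kinase at the centre of both complexes, was the least abundant of the 8 and lies on chromosome 4 of mm9 from 147822720 to 147931792. It had 3.01, 3.08 and 2.84 FPKM in Gdpd3+/+ and 3.21, 3.69 and 3.29 FPKM in Gdpd3-/-. The groups did not overlap, but the gap between the highest Gdpd3+/+ and the lowest Gdpd3-/- library was small beside the spread within Gdpd3-/-. The log2 fold change was 0.18 (SE 0.19, 95% interval -0.27 to 0.64, limma adjusted p = 0.562), and the exact permutation p was 0.1.

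Rictor, the scaffold that defines mTORC2, lies on chromosome 15 of mm9 from 6658381 to 6750398. It had 10.2, 10.0 and 9.34 FPKM in Gdpd3+/+ and 7.55, 10.8 and 10.3 FPKM in Gdpd3-/-. Only Gdpd3-/- replicate 5, the shallowest library, was below the Gdpd3+/+ range. The log2 fold change was -0.06 (SE 0.17, 95% interval -0.47 to 0.35, limma adjusted p = 0.847), and without replicate 5 it was 0.10.

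Tsc1 encodes hamartin, which stabilises the TSC complex, and lies on chromosome 2 of mm9 from 28496748 to 28546687. It had 3.61, 3.33 and 3.003 FPKM in Gdpd3+/+ and 3.89, 4.01 and 3.99 FPKM in Gdpd3-/-. The groups did not overlap, and the 3 Gdpd3-/- values were the closest together of any member, with a coefficient of variation (CV) of 1.66%. Limma gave a log2 fold change of 0.25 (SE 0.18, 95% interval -0.18 to 0.69, adjusted p = 0.445), and the exact permutation p was 0.1.

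Tsc2 encodes tuberin, the subunit that carries the GTPase-activating activity towards Rheb, and lies on chromosome 17 of mm9 from 24732882 to 24769574. It had 7.50, 10.2 and 8.70 FPKM in Gdpd3+/+ and 6.41, 7.50 and 12.4 FPKM in Gdpd3-/-. The Gdpd3-/- libraries held both the lowest and the highest value, for a CV of 36.4%. The fitted log2 difference was -0.05 (SE 0.27, 95% interval -0.69 to 0.59, limma adjusted p = 0.921), and it was 0.14 without Gdpd3-/- replicate 5 and -0.33 without replicate 7. Of the 6347 exonic bases of Tsc2, 578 (9.11%) are shared with Pkd1 on the opposite strand, whose reads cannot be told apart without strand. The other 7 members share no exonic base with another gene.

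**Figure D2:**
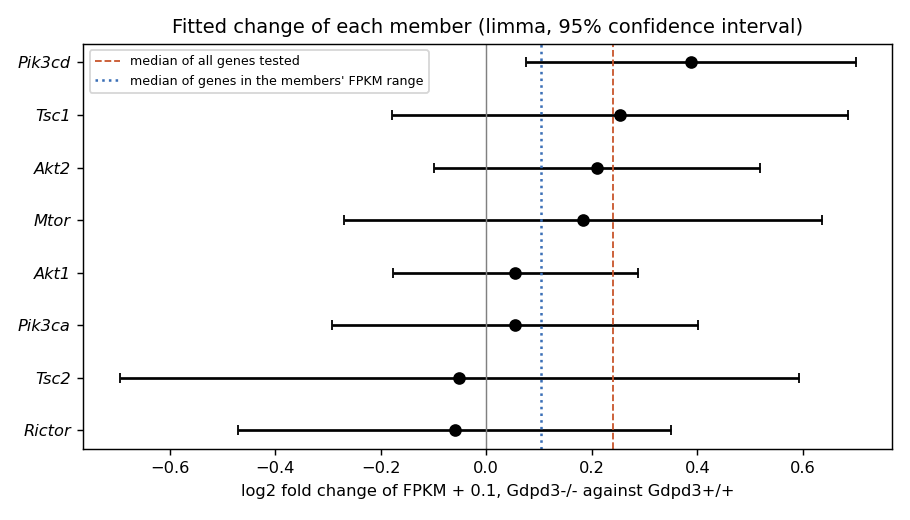
Log2 fold change of FPKM + 0.1 of each member, Gdpd3-/- against Gdpd3+/+ (x axis), as points with the 95% confidence interval of limma. The dashed line is the median of all genes tested, 0.24, and the dotted line that of genes in the members' FPKM range, 0.10. The interval of Pik3cd alone lies above 0, and the intervals of the 8 members all take in both lines.

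The members were set beside genes of similar level. Their median absolute log2 fold change was 0.12, against 0.31 for the 9958 genes with a mean FPKM between 3.19 and 61.5, the range of the members. The median CV of the members was 4.86% within Gdpd3+/+ and 8.92% within Gdpd3-/-, against 7.65% and 20.8% for those genes. The CV was larger in Gdpd3-/- for 6 of the 8, the exceptions being Pik3cd and Tsc1. Among the genes of this range 27.3% were higher in every Gdpd3-/- library and 11.3% were lower in every one. These are descriptions of a list chosen by name, with no test.

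The whole table leaned towards higher values in Gdpd3-/-, with a median log2 fold change of 0.24 over all genes. Against that median 6 of the 8 members were lower, with Pik3cd and Tsc1 above it. The median of genes in the members' FPKM range was 0.10. Akt2 (0.21) and Mtor (0.18) were above that one as well, and Pik3ca, Akt1, Rictor and Tsc2 were below both. Under each of 14 other settings of the fit Pik3cd stayed above the median of all genes in that fit, by 0.05 to 0.29, and Tsc1 did so in 10 of 14. Pik3ca, Akt1, Rictor and Tsc2 were below it in all 14, while Akt2 was above it in 5 and Mtor in 2. With TMM scaling, which moved the median of all genes to 0.06, the log2 fold changes of Pik3ca, Akt1 and Mtor became -0.14, -0.14 and -0.006. No member was called under any of the 14 settings, including the fit without Gdpd3-/- replicate 7, which called 14.2% of 24056 genes. The lowest adjusted p of Pik3cd was 0.112 and the highest 0.463.

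**Figure D3:**
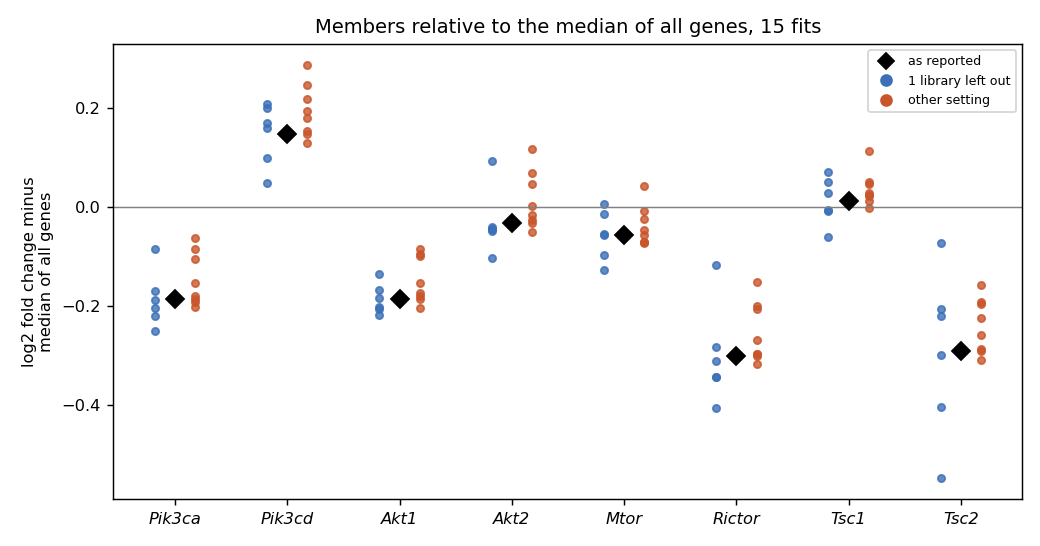
Log2 fold change of each member after subtracting the median over all genes in the same fit (y axis), for the reported fit (black diamonds), 6 fits with a library left out (blue) and 8 fits with another setting (orange). Pik3cd stays above 0 in all of them, and Pik3ca, Akt1, Rictor and Tsc2 stay below 0.

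The members kept the same order of level per length in both genotypes. Akt1 had the highest mean FPKM, followed by Pik3cd, Akt2, Rictor, Tsc2, Pik3ca, Tsc1 and Mtor. Akt1 lay at the 94.7th percentile of the genes tested and Mtor at the 54.4th. In Gdpd3+/+ the libraries of 3 neighbouring pairs overlapped, Pik3cd with Akt2, Rictor with Tsc2, and Tsc1 with Mtor. In Gdpd3-/- the overlapping neighbours were Pik3cd with Akt2, Rictor with Tsc2, and Tsc2 with Pik3ca, while Tsc1 and Mtor no longer overlapped. The lowest value, Mtor in Gdpd3-/- replicate 5, rested on about 462 reads of 150 bases and the highest, Akt1 in Gdpd3+/+ replicate 2, on about 10954.

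A ratio of 2 genes within a library does not depend on how that library was scaled, and the log2 values of 5 such ratios were put to the exact permutation test, two-sided. Pik3cd to Pik3ca was 2.68, 2.72 and 2.28 in Gdpd3+/+ and 3.41, 2.85 and 3.43 in Gdpd3-/-. Every Gdpd3-/- library was higher, with a mean log2 difference of 0.33 (exact p = 0.1, 0.25 adjusted over the 5 ratios). Rictor to Mtor was 3.38, 3.25 and 3.29 in Gdpd3+/+ and 2.35, 2.92 and 3.14 in Gdpd3-/-. Every Gdpd3-/- library was lower, with a mean log2 difference of -0.25 (exact p = 0.1, adjusted 0.25). The ratios of Akt2 to Akt1, Tsc2 to Tsc1 and Rictor to Rptor overlapped, with mean log2 differences of 0.16, -0.31 and -0.61 (exact p = 0.4 for each, and 0.4 adjusted). With 3 libraries a group, the exact test could not give any of them a p below 0.1.

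Within the 4 class I catalytic subunit genes, the share of Pik3cd in the summed FPKM was 29.5%, 29.1% and 25.5% in Gdpd3+/+ and 46.1%, 46.7% and 44.6% in Gdpd3-/- (28.1 ± 2.19% against 45.8 ± 1.08%, SD, n = 3, exact permutation p = 0.1, the smallest possible). These shares were computed after the values of the separate genes had been seen. Pik3cg, which encodes p110γ, the subunit driven by G protein-coupled receptors, held the largest share in Gdpd3+/+ (47.8% to 51.5%) and 29.1% to 38.3% in Gdpd3-/-. Its level was 30.1, 29.1 and 29.9 FPKM in Gdpd3+/+ and 17.5, 13.2 and 18.9 FPKM in Gdpd3-/-, so that Pik3cd was below Pik3cg in each Gdpd3+/+ library and above it in each Gdpd3-/- library. The log2 fold change of Pik3cg was -0.86 (SE 0.15, limma adjusted p = 0.0519), just short of a call, and 6 of the 14 other settings called it, with adjusted p from 0.0190 to 0.257.

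Pik3cb, which encodes p110β, had 6.81, 7.57 and 6.82 FPKM in Gdpd3+/+ and 0.968, 3.51 and 4.26 FPKM in Gdpd3-/- (log2 fold change -1.48, SE 0.52, limma adjusted p = 0.165). It was lower in every Gdpd3-/- library, with replicate 5 far below the others. The summed FPKM of the 4 genes was 62.0, 61.0 and 58.0 in Gdpd3+/+ and 45.7, 45.2 and 54.6 in Gdpd3-/- (exact permutation p = 0.1), without overlap. The larger share of Pik3cd came with lower Pik3cg and Pik3cb values as well as a higher value of its own. The neutrophil genes were also lower in every Gdpd3-/- library, and their part in these shares was not tested.

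**Figure D4:**
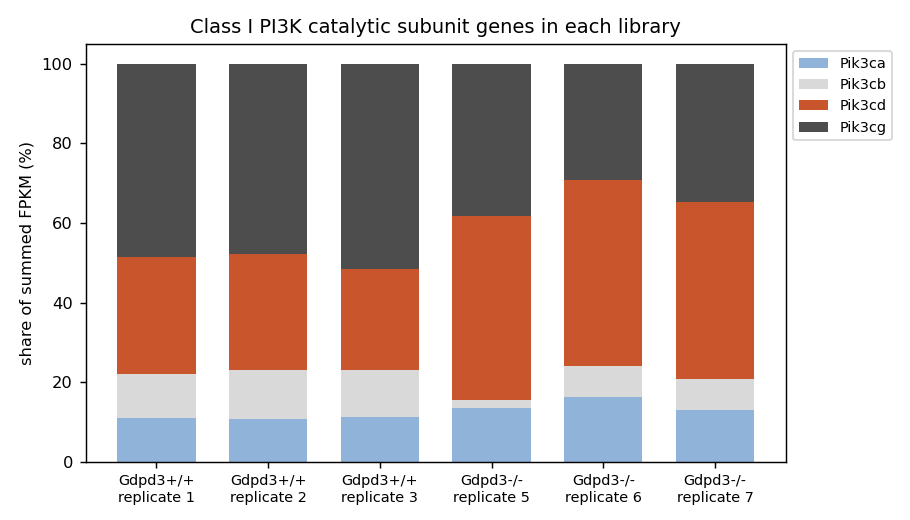
Share of each class I PI3K catalytic subunit gene in the summed FPKM of the 4 genes (y axis, percent, from 0) in each of the 6 libraries. Pik3cd (orange) takes 25.5% to 29.5% in Gdpd3+/+ and 44.6% to 46.7% in Gdpd3-/-, and Pik3cg (dark) takes 47.8% to 51.5% and 29.1% to 38.3%.

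The wider pathway was read from 11 lists by role, 93 genes with the 8 members included, all of which were tested. The limma fit called 0 of the 93, against 1.71% of all genes. At an unadjusted p under 0.05 it counted 19 (20.4%), 15 higher and 4 lower, against 22.2% of all genes. All Gdpd3-/- libraries were above all Gdpd3+/+ libraries for 27 genes (29.0%, against 23.5%) and below for 4 (4.30%, against 8.27%). The 27 include Irs1 and Pik3c2g, which passed the limit on low values only through the Gdpd3-/- libraries. The median log2 fold change was 0.18, against 0.24 over all genes. The share at an unadjusted limma p under 0.05 lay near that of the whole table. The share higher in every Gdpd3-/- library was larger and the share lower was smaller, and neither was tested. The counts by list that follow stand beside the same 23.5% and 8.27% of all genes.

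None of the 5 class I regulatory subunit genes was apart between the genotypes, and Pik3r1, which encodes the p85α subunit and was the most abundant, had a log2 fold change of 0.17 (limma adjusted p = 0.513). Of the 6 adaptor genes 1 was higher in every Gdpd3-/- library. This was Irs1, with 0, 0 and 0.0125 FPKM in Gdpd3+/+ and 0.103, 0.303 and 0.0783 FPKM in Gdpd3-/-. It was near 0 and passed the limit on low values only through the Gdpd3-/- libraries. The most abundant, Pik3ap1, an adaptor of B cell signalling, overlapped at 0.11 (limma adjusted p = 0.554). Of the 5 class II and III genes 2 were higher in every Gdpd3-/- library, both of them low. Pik3c2b averaged 0.760 FPKM over the 6 libraries. Pik3c2g had 0 FPKM in each Gdpd3+/+ library and 0.205, 0.0719 and 0.0434 in Gdpd3-/-. It passed the limit on low values only through Gdpd3-/-, so its place in this count has little meaning. Pik3c3, the class III kinase of autophagy, overlapped at -0.11 (limma adjusted p = 0.842). Beside 23.5% of all genes, 3 of the 7 phosphatase genes were higher in every Gdpd3-/- library. They included Inpp5d, which encodes the blood cell phosphatase SHIP1 (0.28, adjusted p = 0.3002), and Inppl1, which encodes its relative SHIP2, with 0.828, 0.863 and 0.781 FPKM in Gdpd3+/+ and 2.61, 1.98 and 1.65 FPKM in Gdpd3-/- (1.22, limma adjusted p = 0.0918).

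Of the 9 mTOR complex genes 2 were higher in every Gdpd3-/- library, Mtor and Akt1s1, beside 23.5% of all genes. Akt1s1 encodes PRAS40, an mTORC1 subunit that Akt phosphorylates, and had 7.18, 8.11 and 7.12 FPKM in Gdpd3+/+ and 13.8, 12.9 and 9.82 FPKM in Gdpd3-/- (log2 fold change 0.68, limma adjusted p = 0.0895). Its 3 Gdpd3-/- values all stood above 8.11, with replicate 7 the nearest to Gdpd3+/+. Mapkap1, which encodes the mTORC2 subunit SIN1 and was the most abundant of these genes, overlapped at -0.32 (adjusted p = 0.426). Of the 5 genes of the TSC complex and Rheb only Tsc1 was apart, and the most abundant, the TSC subunit gene Tbc1d7, overlapped at 0.39 (adjusted p = 0.503) with 26.8 and 29.5 FPKM in Gdpd3-/- replicates 5 and 6 and 12.5 FPKM in replicate 7.

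The energy and stress inputs to TSC had a median of 0.58, which was 0.39 with TMM scaling and 0.35 with quantile normalization, and 6 of their 10 genes were higher in every Gdpd3-/- library, where 23.5% of all genes were. The list was not tested as a set. Ddit4l, a relative of the stress-induced mTORC1 inhibitor Ddit4, had 1.61, 1.44 and 1.46 FPKM in Gdpd3+/+ and 15.1, 26.5 and 3.74 FPKM in Gdpd3-/- (log2 fold change 2.85, limma adjusted p = 0.0821). Its Gdpd3-/- values followed the same order as the sums of the muscle genes, highest in replicate 6 and lowest in replicate 7. Prkag2 had the same order, and so did Prkag1, which overlapped between the genotypes. Stk11, Prkaa2, Ddit4 and Trib3 were also higher in every Gdpd3-/- library but did not have it. In other lists Tbc1d7, Eif4ebp1, Pik3r6, Sesn3 and Irs1 had it. With 3 libraries few orders are possible, so a shared order says little by itself. The part of muscle RNA was not tested for any of these genes. Prkag2, a regulatory subunit of the energy sensor AMPK, and Ddit4 itself were named after their values were seen and had log2 fold changes of 0.63 (limma adjusted p = 0.0604) and 0.98 (adjusted p = 0.0986). Prkag2 was called among genes averaging 1 FPKM or more (limma adjusted p = 0.0425, and 0.0279 to 0.287 over the 14 settings). Prkab1, another AMPK subunit and the most abundant of the list, overlapped at 0.32 (adjusted p = 0.297).

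**Figure D5:**
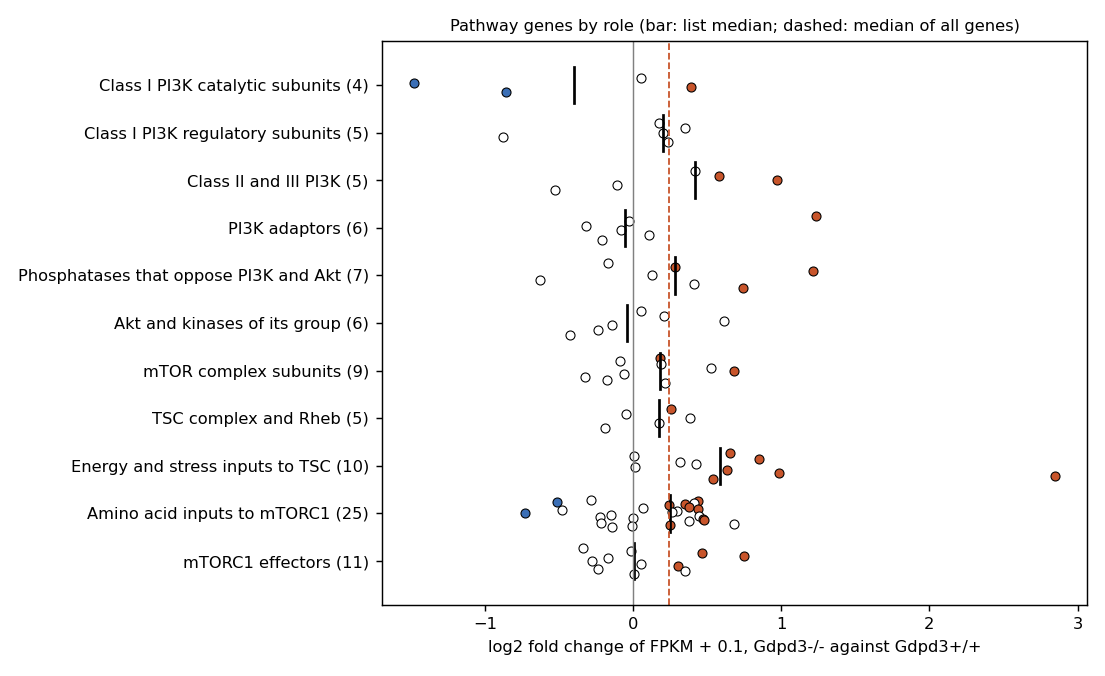
Log2 fold change of FPKM + 0.1 (x axis) of the 93 pathway genes by role (y axis, with the number of genes). Orange points were higher and blue points lower in every Gdpd3-/- library, white points overlapped, black bars are list medians and the dashed line is the median of all genes, 0.24. Orange points number 6 of 10 in the energy and stress list, and the 4 blue points are in the catalytic subunit and amino acid lists.

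Of the 25 genes of amino acid sensing 8 were higher and 2 lower in every Gdpd3-/- library, beside 23.5% and 8.27% of all genes. The most abundant was Lamtor5, a subunit of the Ragulator complex that anchors mTORC1 at the lysosome, at 0.44 (limma adjusted p = 0.0780), and the lower ones included Mios, a subunit of the GATOR2 complex, with 9.24, 11.5 and 10.5 FPKM in Gdpd3+/+ and 4.92, 5.97 and 8.18 FPKM in Gdpd3-/- (-0.73, adjusted p = 0.120). Of the 11 mTORC1 effector genes 3 were higher in every Gdpd3-/- library, beside the same 23.5% of all genes. Rps6, which encodes ribosomal protein S6, the substrate at the end of the pathway, had 376, 396 and 384 FPKM in Gdpd3+/+ and 554, 527 and 513 FPKM in Gdpd3-/- (0.46, limma adjusted p = 0.0589). Eif4ebp1, which encodes the translation repressor 4E-BP1, had 87.5, 96.0 and 89.9 FPKM in Gdpd3+/+ and 153, 201 and 117 FPKM in Gdpd3-/- (0.75, adjusted p = 0.0951). Neither was called in the reported fit, though Rps6 was called when only genes averaging 1 FPKM or more were tested (limma adjusted p = 0.0420, and 0.0190 to 0.289 over the 14 settings).

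Gdpd3-/- replicate 7 stood nearest to Gdpd3+/+ in library correlation (r = 0.930 to 0.933 with its libraries). Calls over the whole table rose from 1.71% to 14.2% of genes without it. Among the 93 pathway genes 13 were then called, near that share. The 13 included Pik3cg, Inppl1, Akt1s1, Ddit4l, Lamtor5, Mios, Rps6 and Eif4ebp1 but none of the 8 members.

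Each member was also set beside the other pathway genes with a mean of at least 1 FPKM, by Pearson correlation of log2(FPKM + 0.1) over the 6 libraries, which share genotype and depth. The gene most like Pik3cd was Tsc1 (r = 0.943), and that most like Tsc1 was Flcn (0.969). The others were Eif4b for Pik3ca (0.965), Irs2 for Akt1 (0.805), Inpp5d for Akt2 (0.980), Stk11 for Mtor (0.961), Sec13 for Rictor (0.950) and Pik3c3 for Tsc2 (0.860). These are the highest of 85 values each and are given as a description.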

How the data were processed

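RNA of LT-CML stem cells was amplified with SMART-Seq v4, made into Nextera XT libraries and sequenced as paired-end reads of 150 bases. The submitters' processing notes name Trimmomatic, Trim Galore, cutadapt 1.16, STAR 2.6.1a, featureCounts 1.6.1 and DESeq2 with build mm9. The authors deposited FPKM values for 36976 genes in 6 libraries, and these were used as deposited. A second deposited table holds the authors' own comparison and was not used. Values times gene length became whole numbers of covered bases (tolerance 0.02) at 1 scale per library, which gave the depths and approximate read numbers. Reads per gene were not recovered, so no count model was run.

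Genotype was the single term of a limma fit (limma 3.58.1, R 4.3.3) to log2(FPKM + 0.1), with the variance prior following the mean level. Genes averaging under 0.05 FPKM were left out, and Benjamini-Hochberg adjustment ran over the other 24689, at a threshold of 0.05. Fold changes are on the log2(FPKM + 0.1) scale, which understates changes of low genes. Exact permutation tests were two-sided (SciPy 1.17.1, 20 assignments, smallest p 0.1). The fit was run on simulated libraries drawn with the spread of Gdpd3+/+ alone. That run does not show how the fit behaves under the wider spread of Gdpd3-/-.

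The members and gene lists were chosen with earlier results of these data known. Named genes are the members, Gdpd3, any pathway gene called, per list the most abundant gene and, where none was called, the non-overlapping gene with the largest change and a mean of at least 1 FPKM, and the gene most like each member. Rptor was named as part of a ratio, and Irs1, Pik3c2b and Pik3c2g for their low values. The genes set beside the order of the muscle sums were named after their values were seen. Of the 143 list genes 11 were matched by another symbol. Promoters are from RefSeq on GRCm38.p6, whose positions were not mixed with those of mm9 in the file. Other settings were each tried alone. They were a pseudocount of 0.01 or 1, all genes kept or only those averaging 1 FPKM or more, libraries scaled by TMM (trimming 30% of M and 5% of A) or quantiles, a fit without the trend, array weights, and each library omitted in turn. Some items are not reported here.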

Additional observations from a re-analysis of the deposited data

How the results depend on the processing

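No member was called under any of the 14 alternatives, and Pik3cd, Akt2 and Tsc1 kept their direction in all of them. The log2 fold changes of Pik3ca, Akt1 and Mtor reversed to -0.14, -0.14 and -0.0060 with TMM scaling and to -0.068, -0.10 and -0.076 with quantile normalization. The median over all genes, 0.24, was 0.06 and -0.0063 under these scalings. Counted by an unadjusted p under 0.05, 0 to 2 members passed, beside 13.02% to 31.0% of all genes (23.7% where 2 members did). Tsc2 reversed to 0.024 with array weights and ranged from -0.33 to 0.14 with a library left out (0.06 without Gdpd3+/+ replicate 2, 0.14 and 0.03 without Gdpd3-/- replicates 5 and 6). With a library left out Rictor ranged from -0.16 to 0.10, positive at 0.10 without Gdpd3-/- replicate 5. The within-library ratios, which do not depend on library scaling, did not reverse in the 7 settings tried for each.

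Of all genes, 270 were called higher and 152 lower. The counts became 125 and 88 with no filter, 124 and 101 with a pseudocount of 1, 118 and 232 with TMM scaling, and 79 and 74 with no trend. Those called higher numbered 471 at a mean FPKM of at least 1, 119 with quantile normalization and 124 with array weights. With a library left out they ranged from 0 to 2364 higher and 0 to 1049 lower: 0 and 0 without Gdpd3+/+ replicate 1 (where 3356 had an unadjusted limma p under 0.05), 0 and 1 without replicate 2, 8 and 13 without replicate 3, 84 higher without Gdpd3-/- replicate 5, and the most without Gdpd3-/- replicate 7. Pathway genes called numbered 1 with a pseudocount of 0.01, TMM scaling or quantile normalization (Pik3cg in each), 3 at a mean FPKM of at least 1 (Pik3cg, Prkag2 and Rps6), and 0 to 13 with a library left out. Their median log2 fold change, 0.18, became 0.12 at a mean FPKM of at least 1, -0.0060 with TMM scaling and -0.071 with quantile normalization, and 0.13 to 0.21 with a library left out. The cause of these shifts was not tested.

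Leaving out each library for the count of members above every Gdpd3+/+ library was added after seeing the data, and gave 3 to 6, beside 25.5% to 34.1% of all genes, with 6 and 31.6% without Gdpd3-/- replicate 5. No paired analysis was run because the labels give no pairing between libraries of the genotypes. Read numbers of independent molecules are unknown, and 3 libraries a group limit the intervals.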
